A study of Mus musculus with 6 samples.

Results

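The 10 genes described here were Sox2, Sox9, Sox10, Trp63, Kit, Kitl, Ascl3, Elf5, Ehf and Grhl2, regulators of end bud and progenitor cells of the salivary epithelium. They were chosen by gene symbol, and all 10 were found among the 23260 genes counted. The libraries came from embryonic submandibular glands (eSMGs) of ICR mice at embryonic day 14. Control eSMGs were cultured without and treated eSMGs with 50 µM AMD3100, an antagonist of the chemokine receptor CXCR4, and were collected after 6 h. Up to 10 glands were pooled in each tube, and each group had 3 libraries (replicates) made with a 3′ mRNA kit. Each tube held whole glands, so epithelium, mesenchyme, nerve and vessel were measured together, and fewer cells of a type cannot be told apart from less RNA per cell. The labels did not say whether the tubes of a group came from separate litters, so p-values measured the spread between these tubes. Library totals ran from 9051595 to 14393031 counts, at which the floor of 3 counts lay between 0.208 and 0.331 CPM (counts scaled to the library total). Of these totals, Rn45s made up 16.2% (AMD3100 replicate 1) to 32.5% (AMD3100 replicate 2). The floor covers counting error only, since no molecular identifiers are stated. Means are given ± SD over the 3 libraries of a group.

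The submandibular gland grows by repeated clefting of epithelial end buds, whose cells include progenitors of acini and ducts. SOX2, SOX9 and SOX10 are HMG-box transcription factors. SOX2 is known for acinar progenitors, SOX9 for distal end bud progenitors, and SOX10 for end bud cells that can give rise to acinar, ductal and myoepithelial cells. KIT is a receptor tyrosine kinase of end bud progenitors, and KITL (stem cell factor) is its ligand. p63, encoded by Trp63, maintains basal epithelial cells. ELF5 and EHF are ETS factors of glandular epithelium, GRHL2 maintains epithelial junctions, and ASCL3 marks a progenitor of the ducts.

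Sox2 lies on chromosome 3 from 34649995 to 34652461, and Kit on chromosome 5 from 75574987 to 75656722 (RefSeq, GRCm38.p6). RefSeq lists Sox2ot, a long non-coding RNA gene, over Sox2, and whether the counting separated their reads is not given in the sources used here. Sox9 lies on chromosome 11 from 112782210 to 112787757, Sox10 on chromosome 15 from 79154913 to 79164490 and Ehf on chromosome 2 from 103263431 to 103303275. No other RefSeq gene overlaps Sox9, Sox10, Kit, Kitl, Ascl3, Elf5 or Ehf. Trp63 and Grhl2 each overlap a predicted gene. The 250 bases before the start sites of Sox2 and Kit, on the forward strand, are shown since Sox2 had the largest fold change of the 10 genes and Kit one of the widest spreads between libraries. Capitals mark the motifs searched on both strands, which were ACAAAG (a SOX core), ATGCAAA (an octamer core), ATTGG (an inverted CCAAT box), GGGCGG (a GC box) and AGGAAG (an ETS core). The marked matches do not overlap each other.
Sox2, chr3:34649745-34649994, GRCm38.p6, forward strand: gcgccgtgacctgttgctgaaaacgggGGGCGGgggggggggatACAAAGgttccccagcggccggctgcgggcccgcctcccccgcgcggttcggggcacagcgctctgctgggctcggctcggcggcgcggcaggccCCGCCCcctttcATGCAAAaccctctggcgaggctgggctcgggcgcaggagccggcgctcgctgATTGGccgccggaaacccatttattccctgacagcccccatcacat
Kit, chr5:75574737-75574986, GRCm38.p6, forward strand: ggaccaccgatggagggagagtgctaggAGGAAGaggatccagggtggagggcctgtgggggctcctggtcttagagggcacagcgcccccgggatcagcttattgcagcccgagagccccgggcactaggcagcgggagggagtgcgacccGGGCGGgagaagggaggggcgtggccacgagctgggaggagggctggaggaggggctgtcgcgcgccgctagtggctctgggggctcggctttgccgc

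The stretch before Sox2 held the SOX core 206 bases before the start site and the octamer core 99 bases before it. Of 32851 promoters searched over the same length, 16.5% held the SOX core and 4.12% the octamer core. It also held an inverted CCAAT box (33.8% of all promoters) and a GC box on each strand. Of all promoters, 32.7% held a GC box. The stretch before Kit held a GC box and an ETS core (29.5%), and these letters of the SOX and octamer cores were not in it. The matches are a description of the letters and not of binding.

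The libraries did not stand equally close to each other. In a principal component analysis of log2 CPM, 38.2% of the variance lay on the first component, which placed control replicate 3 at 84.8 and AMD3100 replicate 3 at 80.8, whereas the other 4 libraries lay between -78.7 and -17.4. Skeletal muscle markers had a summed level of 2123 CPM in control replicate 3 and 2797 CPM in AMD3100 replicate 3, against 202 to 346 CPM in the other 4 libraries. Main results are therefore also given with the replicate number as a block or without both replicate 3 libraries.

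**Figure D1:**
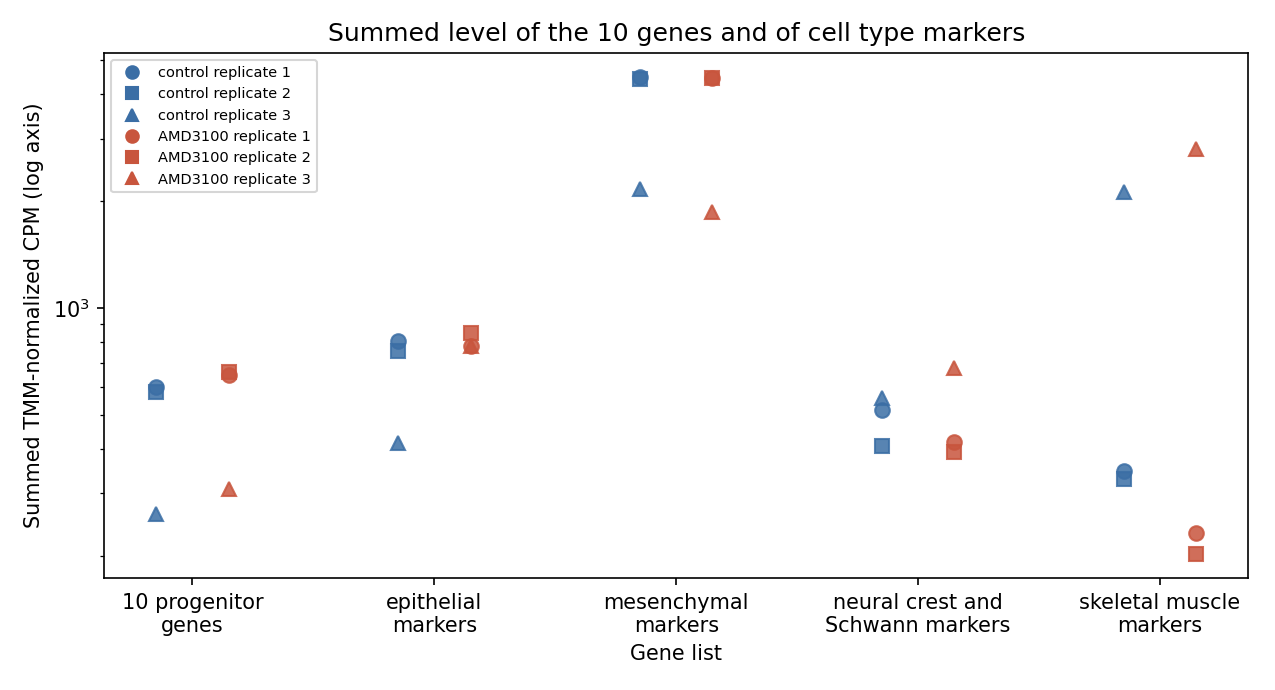
Summed TMM-normalized CPM (log axis) of the 10 progenitor genes and of the marker lists of 4 cell types, 1 point per library, with colour for the group and shape for the replicate number. In both groups replicate 3 stood lowest for the 10 genes and for mesenchymal markers and highest for skeletal muscle markers.

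The labelled tissue was checked against its markers. The 12 epithelial markers, among them Cdh1 (E-cadherin) and Epcam, summed to 809, 758 and 417 CPM in control and 783, 848 and 782 CPM in AMD3100-treated eSMGs. Cdh1 was the most abundant of them at a mean of 349 CPM, and the splicing factor gene Esrp2 was at 0 counts in all libraries but AMD3100 replicate 3. The 11 mesenchymal markers, led by Col3a1 at 1075 CPM, summed to 4479, 4405 and 2168 CPM in control and 4458, 4446 and 1859 CPM in AMD3100-treated eSMGs. Markers of both epithelium and mesenchyme were present in every library. Between AMD3100-treated and control eSMGs, 0 of 11 tested epithelial, 0 of 11 mesenchymal and 0 of 12 skeletal muscle markers passed edgeR's test described below with condition only. Under the replicate block, Twist1 of the mesenchyme (log2 fold -0.97) and the muscle regulators Myog (-1.16) and Myod1 (-2.05) were called lower by fold and unadjusted p-value, against 2.9% of all genes. With replicates 1 and 2 only, 1 epithelial, 0 mesenchymal and 3 muscle markers were called, against 613 of all 13948 genes tested in that fit. Without AMD3100 replicate 3 alone 8 muscle markers were called, against 451 of 14260 genes. Of the 12 epithelial markers, Cdh1, Cldn3, Epcam, Esrp1, Rab25 and Spint2 are also in the list of GRHL2 targets used below.

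To ask how abundant each regulator was, levels were compared as TMM-normalized CPM. A 3′ library gives about the same number of reads for a transcript of any length, so no division by length was made. Sox9 was the most abundant of the 10 genes, at 261 ± 84.8 CPM in control and 301 ± 115 CPM in AMD3100-treated eSMGs. Its range did not overlap that of Sox10, the next in both groups. Sox10, Kitl, Ehf, Grhl2, Sox2, Elf5, Trp63 and Kit followed in that order in control, and every neighbour in this order overlapped the next over the 3 libraries. In AMD3100-treated eSMGs the order after Sox10 was Ehf, Sox2, Kitl, Grhl2, Elf5, Trp63 and Kit, and Kitl and Grhl2 were the only neighbours of this run whose ranges did not overlap. With CPM of the library total in place of TMM, their ranges overlapped. Ascl3 had 1 count in control replicate 2 and 0 counts in the other 5 libraries, so that it was at or below the floor everywhere and no fold is given.

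**Figure D2:**
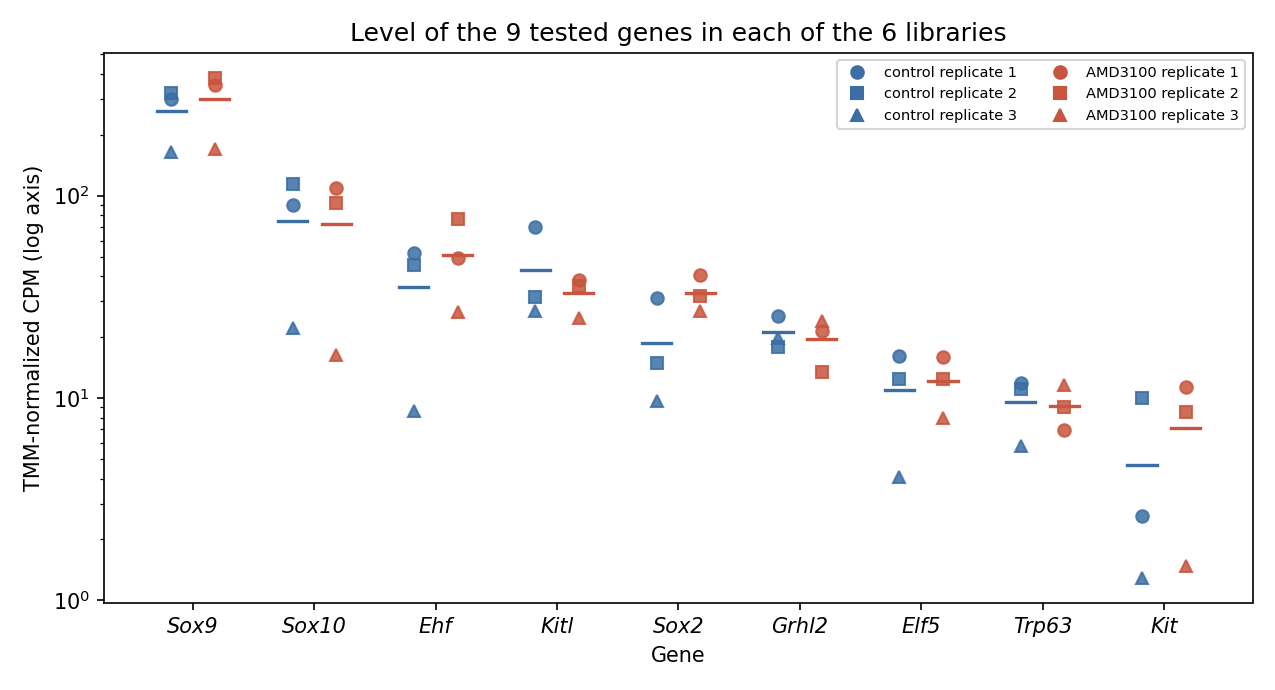
TMM-normalized CPM (log axis) of the 9 genes that passed the filter on low counts, with 1 point per library and a bar at the group mean. Sox9 lies highest, the groups overlap for every gene, and replicate 3 is the lowest library of Sox2, Sox9, Sox10, Kit, Kitl, Elf5 and Ehf in both groups.

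To determine whether AMD3100 altered these regulators within 6 h, AMD3100-treated and control eSMGs were compared over 13610 genes with edgeR's quasi-likelihood test, and Benjamini-Hochberg adjustment was made over all of them. Of the 10 genes, 9 were tested, and Ascl3 did not pass the filter on low counts. None of the 9 (0) passed an adjusted p-value of 0.05, against 0% of all genes tested, and every one had an edgeR adjusted p-value of 1.0. By a fold change over 1.5 with an unadjusted p-value under 0.05, 0 of the 9 were called, against 1.68% of all genes (0.397% higher and 1.28% lower). In no gene of the 9 did all libraries of one group stand above all of the other, as they did for 7.44% of all genes (3.28% higher and 4.17% lower). The median log2 fold change was 0.15 over the 9 genes and 0.02 over all genes. With the replicate number as a block, 2 of the 9 genes, Sox2 and Ehf, were called by fold and unadjusted p-value, both higher in AMD3100-treated eSMGs, against 1.49% of all genes higher and 2.9% lower. None of the 9 passed the adjusted threshold of edgeR with the block, against 0.022% of all genes. With replicates 1 and 2 only, 0 of the 9 were called, against 613 of 13948 genes.

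**Figure D3:**
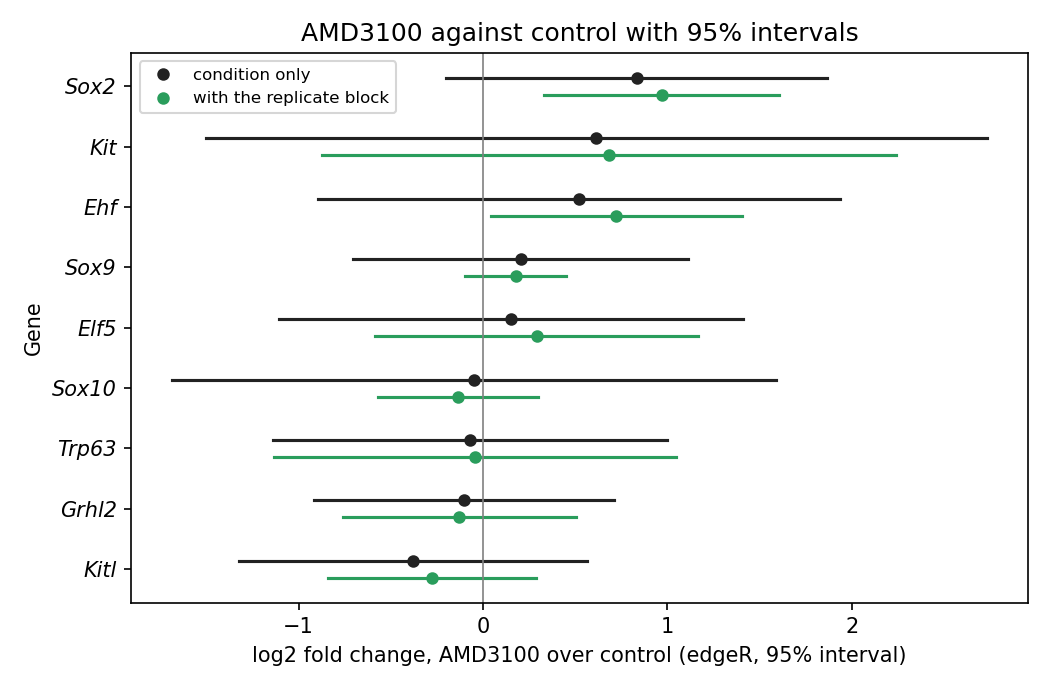
log2 fold change of AMD3100-treated over control eSMGs for the 9 tested genes, with 95% intervals from edgeR's test with condition only (black) and with the replicate block (green). All black intervals include 0, and the green intervals of Sox2 and Ehf lie above 0.

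Sox2 had the largest fold change of the 9. It was at 31.3, 14.9 and 9.67 CPM in control replicates 1, 2 and 3 (357, 204 and 97 counts). In AMD3100-treated eSMGs it was at 40.7, 31.9 and 26.8 CPM (706, 346 and 218 counts). The groups overlapped through control replicate 1 alone, which stood above AMD3100 replicate 3. The fold change was 1.78 (95% interval 0.869 to 3.65), 0.83 ± 0.46 (SE) as log2 fold (edgeR unadjusted p = 0.102). Within same-numbered pairs Sox2 was 1.30-fold, 2.15-fold and 2.77-fold higher in AMD3100-treated eSMGs, and 15.7% of all genes were higher in all 3 pairs. With the replicate block the fold change was 1.96 (95% interval 1.26 to 3.05), with an edgeR unadjusted p = 0.00721 and adjusted p = 0.523 (0.523 to 1.0 over the alternatives). Without control replicate 1 the log2 fold change was 1.43 (edgeR unadjusted p = 0.00956), and without control replicate 3 it was 0.53 (edgeR unadjusted p = 0.239). These were the highest and the lowest values with single libraries left out. With replicates 1 and 2 only the log2 fold change was 0.65 (edgeR unadjusted p = 0.119). Sox2 is also expressed by glial cells of the ganglion, and the 12 neural crest, Schwann cell and neuronal markers summed to 516, 407 and 559 CPM in control and 417, 393 and 676 CPM in AMD3100-treated eSMGs. Tubb3, of neurons, was the most abundant of them at 208 CPM. Their part in the Sox2 values was not tested.

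Sox9, the distal progenitor factor, differed little within pairs. It was at 299, 320 and 164 CPM in control and 352, 381 and 169.6 CPM in AMD3100-treated eSMGs. Replicate 3 was the lowest library of each group, and the groups overlapped. Sox9 was 1.18-fold, 1.19-fold and 1.03-fold higher in AMD3100 within pairs 1, 2 and 3. On the log2 scale the groups differed by 0.20 ± 0.40 (SE) (edgeR unadjusted p = 0.622), and with the replicate block it was 0.18 ± 0.12 (SE), which gave a 95% interval of 0.936-fold to 1.37-fold. Without control replicate 3 the log2 fold change was -0.04. Cartilage, which also expresses Sox9, was represented by Col9a1 at a mean of 35.1 CPM and by 5 other markers that passed the filter, whereas Matn1 had 1 count in all. Of the 6 cartilage markers tested, 0 were called, against 1.68% of all genes.

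Sox10, the end bud factor that also marks neural crest derivatives, was at 89.5, 114 and 22.1 CPM in control and 109.6, 91.9 and 16.3 CPM in AMD3100-treated eSMGs. The spread within each group was far larger than the difference between the means of 75.1 ± 47.4 and 72.6 ± 49.5 CPM. This gave a log2 fold of -0.05 ± 0.72 (SE), and the 95% interval ran from 0.311-fold to 3.01-fold. With the replicate block the log2 fold was -0.14 ± 0.19 (SE), and the 95% interval ran from 0.674-fold to 1.23-fold. The direction differed between pairs, with Sox10 at 1.23-fold of control in pair 1, 0.808-fold in pair 2 and 0.738-fold in pair 3. Without AMD3100 replicate 3 the log2 fold change was 0.42. Of the Schwann cell markers, Cdh19 was at 0 to 3 counts and Erbb3, which encodes a neuregulin receptor, at 0 to 12 counts per library.

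Kit, the receptor, was at 2.63, 10.1 and 1.30 CPM in control (30, 138 and 13 counts). It was at 11.3, 8.57 and 1.47 CPM in AMD3100-treated eSMGs (197, 93 and 12 counts). Control replicate 1 and both replicate 3 libraries were low, the other 3 were high, and the groups overlapped. The fold change of 1.53 had a 95% interval of 0.353 to 6.65 (0.61 ± 0.93 as log2 fold and SE), so that a several-fold difference either way lay within it. Without control replicate 2 the log2 fold change was 1.86, and without AMD3100 replicate 1 it was 0.10. Kitl, the ligand, was at 70.2, 31.7 and 27.0 CPM in control and 38.4, 35.9 and 24.8 CPM in AMD3100-treated eSMGs. Control replicate 1 stood above the rest, and the other 5 libraries lay between 24.8 and 38.4 CPM. For Kitl the log2 fold came to -0.38 ± 0.42 (SE), and without control replicate 1 it was 0.16. Mast cells and melanocytes, which express Kit, were represented unevenly. Of the mast cell markers, Hdc had 0 to 82 counts per library, Cpa3 had 0 to 27 counts and Tpsb2 0 to 37. Of the pigment cell markers, Pmel had 29 to 232 counts and Dct 0 to 13. Fcer1a and Tyrp1 were at 0 counts in every library, and Ms4a2, Tyr and Mcpt4 at no more than 4. The list of 11 summed to 22.9, 23.7 and 17.1 CPM in control and 27.0, 41.6 and 15.6 CPM in AMD3100-treated eSMGs. Mitf was the most abundant at 10.8 CPM, and 0 of the 4 tested genes of the list were called, against 1.68% of all genes. The part of these cells in the Kit values was not tested.

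The genes downstream of KIT were described by a list of 21 adaptors, kinases and STAT factors, all of which were tested. None (0) was called, against 1.68% of all genes. Of the 21, 11 were higher and 10 lower, and the median log2 fold change was 0.00, against 0.02 over all genes. Akt1, a kinase downstream of PI3K, was the most abundant at 309 ± 202 CPM in control and 255 ± 162 CPM in AMD3100-treated eSMGs. Stat3 was at 217 ± 12.4 and 207.5 ± 12.6 CPM. With the replicate block, Jak2 (log2 fold change 1.02) and Stat5b (-0.84) were called by fold and unadjusted p-value, with edgeR adjusted p-values of 0.730 and 0.722, against 1.49% of all genes called higher and 2.9% lower. With replicates 1 and 2 only 0 of the 21 were called, against 613 of 13948 genes. With DESeq2 1 was called, against 325 of 13610 genes, and with the version of the study's procedure 1, against 439 of 18307. Without control replicate 3, 1 was called (547 of 14256 genes), as without AMD3100 replicate 1 (163 of 14197). Without AMD3100 replicate 3, 2 were called (451 of 14260 genes), as with replicate 3 as a batch (564 of 13610).

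Trp63, the basal cell factor, was at 11.9, 11.1 and 5.78 CPM in control and 6.91, 9.03 and 11.5 CPM in AMD3100-treated eSMGs. Its libraries interleaved, and the pairs did not share a direction. The log2 fold came to -0.07 ± 0.47 (SE) and was 0.11 without control replicate 1. With replicates 1 and 2 only it was -0.54. Of 13 genes known as p63 targets, all 13 were tested and 0 were called, against 1.68% of all genes, and the median log2 fold change was 0.03. Dsp (desmoplakin, of desmosomes) was the most abundant, at 123 ± 61.6 CPM in control and 173 ± 33.2 CPM in AMD3100-treated eSMGs. With the replicate block Dsp had a log2 fold change of 0.62 (edgeR unadjusted p = 0.0419, adjusted p = 0.730) and was the only one of the 13 called by fold and unadjusted p-value, against 4.39% of all genes (1.49% higher), and with replicates 1 and 2 only 0 were called. Itga6, an integrin chain of hemidesmosomes, was at 84.8 ± 44.0 and 77.2 ± 29.6 CPM.

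Ehf and Elf5 are ETS factor genes that lie near each other on chromosome 2. Ehf was at 52.2, 45.2 and 8.68 CPM in control and 49.1, 76.4 and 26.5 CPM in AMD3100-treated eSMGs. Control replicate 3 stood far below the rest. Within pairs 1, 2 and 3, Ehf was 0.941-fold, 1.69-fold and 3.06-fold of control. On the log2 scale the groups differed by 0.52 ± 0.62 (SE) (edgeR unadjusted p = 0.427). With the replicate block it was 0.72 ± 0.30 (SE) (edgeR unadjusted p = 0.0396, adjusted p = 0.727, and 0.682 to 1.0 over the alternatives), and with replicates 1 and 2 only it was 0.36 (edgeR unadjusted p = 0.204). Without control replicate 3 alone it was 0.06. Elf5 was at 16.2, 12.5 and 4.09 CPM in control and 16.0, 12.4 and 7.98 CPM in AMD3100-treated eSMGs. In replicates 1 and 2 the Elf5 levels of both groups were nearly equal, at 0.989-fold and 0.992-fold of control, and in replicate 3 AMD3100 was 1.95-fold of control. For Elf5 the log2 fold came to 0.15 ± 0.55 (SE), and -0.23 without control replicate 3.

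Grhl2 had the narrowest spread of the 9 tested genes over the 6 libraries, at 1.90-fold from the lowest to the highest. It was at 25.6, 17.9 and 19.8 CPM in control and 21.5, 13.5 and 24.1 CPM in AMD3100-treated eSMGs, and the groups overlapped. This gave a log2 fold of -0.10 ± 0.36 (SE) (95% interval 0.529-fold to 1.64-fold), and 0.12 without AMD3100 replicate 2. Of 12 genes known as GRHL2 targets, all were tested and 0 were called, against 1.68% of all genes. Of the 12, 9 were higher, with a median log2 fold change of 0.26. Over all genes 7100 of 13610 were higher, the median was 0.02, and 3.28% had all AMD3100 libraries above all control libraries, as 2 of the 12 did. Cdh1 was at 283 ± 65.2 CPM in control and 415 ± 83.4 CPM in AMD3100-treated eSMGs, with all AMD3100 libraries above all control libraries and a log2 fold of 0.55 ± 0.31 (SE, edgeR unadjusted p = 0.108). Cldn4, a tight junction claudin, also had groups that did not overlap, with a log2 fold change of 0.43. Epcam, an adhesion molecule, was at 96.3 ± 32.3 and 93.1 ± 17.3 CPM.

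**Figure D4:**
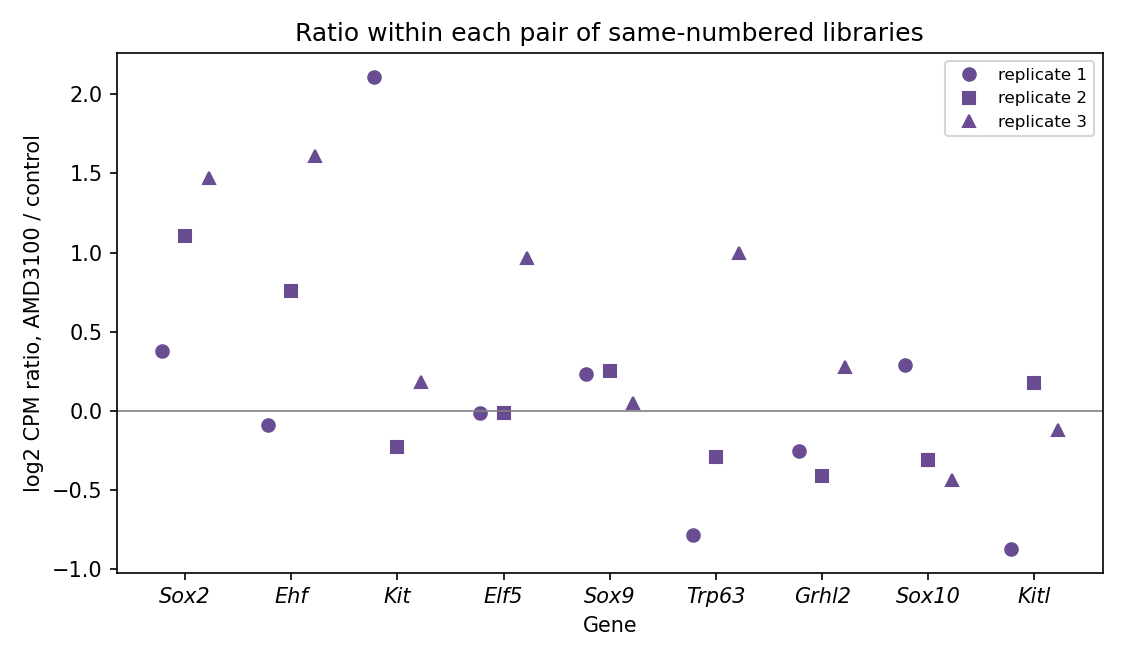
log2 ratio of AMD3100-treated to control CPM for each of the 3 pairs of libraries with the same replicate number. Sox2 and Sox9 are the genes with all 3 points above 0, and the 3 points of Kit run from -0.23 to 2.11.

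Of 10 paralogs in the SOX, GRHL, ETS, p53 and achaete-scute families, 6 were tested and 0 were called, against 1.68% of all genes. Elf3, an epithelial ETS factor, was the most abundant at 19.3 ± 9.18 CPM in control and 19.7 ± 6.71 CPM in AMD3100-treated eSMGs, and Grhl1 was at 16.4 ± 5.75 and 16.1 ± 5.86 CPM. Spdef had 0 counts in every library. Sox1 and Sox3, the SoxB1 relatives of Sox2, had at most 4 and 10 counts per library, so that Sox2 was the member of that group with the most counts in each library.

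Of 17 other end bud and progenitor genes, 15 were tested and 1 was called, against 1.68% of all genes (0.397% higher), with a median log2 fold change of -0.05. This gene was Prom1 (encoding CD133), which was at 16.4 ± 3.45 CPM in control and 33.6 ± 12.5 CPM in AMD3100-treated eSMGs. For Prom1 the log2 fold came to 1.04 ± 0.38 (SE) (edgeR unadjusted p = 0.0229, adjusted p = 1.0), and its groups did not overlap. Krt15, a keratin of epithelial stem cells, was the most abundant at 980.4 ± 81.4 and 1618 ± 760.0 CPM, with a log2 fold change of 0.72 (edgeR unadjusted p = 0.0798). Id3, an inhibitor of basic helix-loop-helix factors, had a log2 fold of -1.10 ± 0.54 (SE), and with the replicate block -0.94 (edgeR unadjusted p = 0.000413, adjusted p = 0.214). With the block, 4 of the 15 were called by fold and unadjusted p-value, 2 in each direction, against 4.39% of all genes. Prom1 and Krt15 were higher, Krt15 at a block log2 fold of 0.62 (edgeR unadjusted p = 0.0240, adjusted p = 0.703). Id3 and Barx2 were lower, Barx2 at -0.61 (edgeR unadjusted p = 0.00988, adjusted p = 0.583). With replicates 1 and 2 only 3 of the 15 were called, against 613 of 13948 genes. Of the neural crest and Schwann cell list, 1 of 10 tested genes was called, against 1.68% of all genes. With the version of the study's procedure 0 were called, against 439 of 18307 genes. The called gene was Fabp7, a fatty acid-binding protein gene of glia, at 25.4 ± 19.0 CPM in control and 7.22 ± 3.0 CPM in AMD3100-treated eSMGs, with a log2 fold change of -1.82 (edgeR unadjusted p = 0.0126, adjusted p = 1.0). In this list 2 genes were called with the replicate block, against 4.39% of all genes. With replicates 1 and 2 only 2 were called, against 613 of 13948 genes. With the block these were Fabp7 and, in the other direction, Ednrb, an endothelin receptor gene, which was at 6.95 ± 3.90 CPM in control and 13.7 ± 1.05 CPM in AMD3100-treated eSMGs with groups that did not overlap (block log2 fold 1.14, edgeR unadjusted p = 0.0388, adjusted p = 0.727). S100b, a calcium-binding protein gene of glia, was at 80.5 ± 59.6 and 74.1 ± 42.6 CPM.

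Since most of these regulators are epithelial, each was also set against the summed CPM of the 12 epithelial markers, as a log2 ratio with a pseudocount of 0.5. The groups were compared with a two-sided exact permutation test, for which 0.1 is the smallest p-value with 3 libraries each. The mean log2 ratio of Sox2 was -5.22 ± 0.49 for control eSMGs and -4.60 ± 0.31 with AMD3100 (exact permutation p = 0.3), a difference of 0.62 with all 3 pairs in the same direction. Kitl differed by -0.61 (exact permutation p = 0.3), Ehf by 0.40 (p = 0.6, exact permutation) and Grhl2 by -0.47 (p = 0.4, exact permutation). The ratio of Grhl2 was lower in all 3 pairs, whereas its CPM was 1.21-fold of control in pair 3. Cdh1 made up a mean of 283 of 661 CPM of the epithelial sum in control and 415 of 804 CPM with AMD3100. Ratios without Cdh1, and the share of all genes with pairs in 1 direction on this scale, were not computed. The difference was -0.49 for Sox10 (exact permutation p = 0.6), -0.37 for Trp63 (p = 0.4, exact permutation) and 0.27 for Kit (p = 0.9, exact permutation). Sox9 differed by -0.16 (exact permutation p = 1) and Elf5 by -0.05 (exact permutation p = 0.9). Sox9 had a log2 ratio of -1.34 ± 0.10 in control. In AMD3100 replicate 3 its log2 ratio was -2.20, against -1.15 in each of the other 2 AMD3100 libraries. Cdh1 made up 507 CPM of the epithelial sum of that library. Krt8, an epithelial keratin, stood at 17.1 CPM in that library and at 61.0 and 76.7 CPM in the other 2. Krt18, another keratin of the list, did not share this, at 90.0 CPM against 91.1 and 75.1 CPM. The cause of the Sox9 ratio in that library was not tested.

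Sox9, Sox10 and Ehf were lower in replicate 3 of both groups than in replicates 1 and 2. With edgeR's test of the 2 replicate terms of the block fit, which was added after the libraries had been seen to stand apart, 3 of the 9 genes (Sox9, Sox10 and Ehf) had an adjusted p-value under 0.05, against 17.8% of all genes. That test asks for any difference among the 3 replicates. Its p-values, also those below, do not belong to the difference of replicate 3, for which none is given. All 3 genes were lower in replicate 3, and 7.62% of all genes were called and lower there. Sox10 was 5.28-fold lower in replicate 3 than in the mean of replicates 1 and 2 (log2 difference -2.40, standard error 0.23). The joint edgeR test gave it an adjusted p = 0.000466. Ehf was 3.47-fold lower (edgeR adjusted p = 0.0158) and Sox9 2.02-fold lower (edgeR adjusted p = 0.00259). Kit was 5.53-fold lower with a standard error of 0.79 on the log2 scale (edgeR adjusted p = 0.114), and Elf5 2.42-fold lower (edgeR adjusted p = 0.147). Trp63 and Grhl2 had log2 differences of -0.16 and 0.20, below their standard errors of 0.52 and 0.30. Over all genes the median log2 difference was 0.05, and 48% of them were lower in replicate 3, against 8 of the 9 genes.

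**Figure D5:**
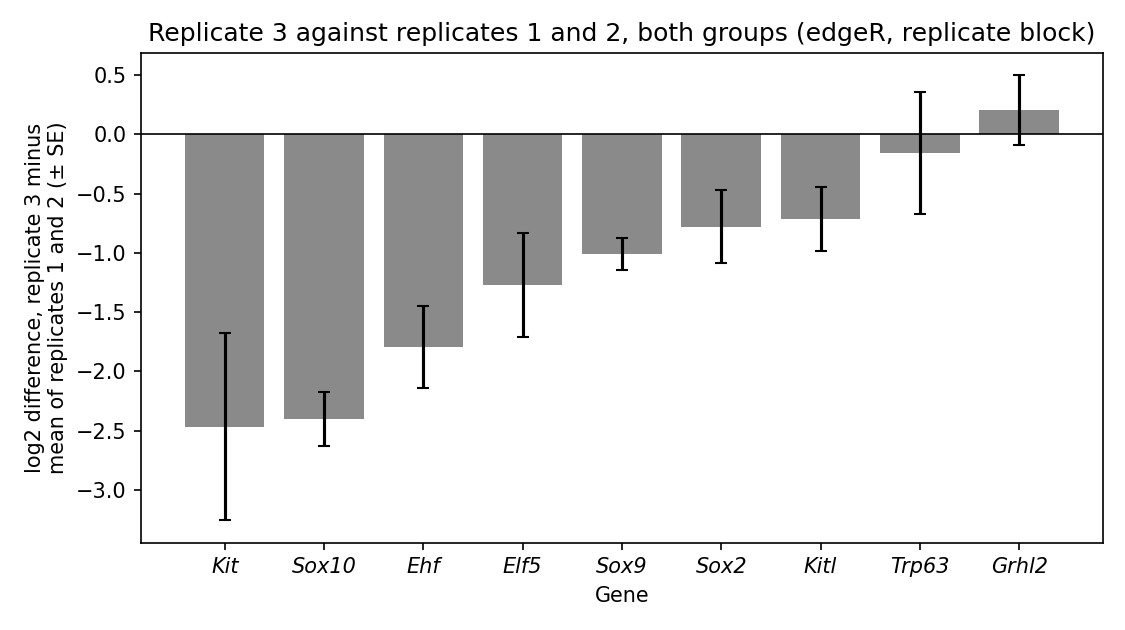
log2 difference between replicate 3 and the mean of replicates 1 and 2, over both groups, from edgeR's fit with the replicate block (bars, ± standard error). Sox10 lies at -2.40 with a short error bar, Kit at -2.47 with a long one, and Trp63 and Grhl2 lie near 0.

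Other cell types moved with the replicate number as well. All 12 skeletal muscle markers were higher in replicate 3 and 11 of them had an edgeR adjusted p-value under 0.05 in that test. Their median log2 difference was 3.30, with the muscle regulator Myog, the most abundant of the list, at 4.56, and Actc1, a muscle actin gene, at 1.75. Of the 11 mesenchymal markers, 4 were called and all 4 were lower, among them Col3a1 (-1.78) and Col1a2 (-1.75), which encode fibrillar collagens. Of the 11 epithelial markers tested, 3 were called and all 3 (Krt8, Cldn6 and Rab25) were lower, whereas Cdh1 had a log2 difference of -0.04. Within the same libraries, Krt5 and Krt14, keratins of basal cells and p63 targets, had log2 differences of -2.09 and -0.90. Of the 6 cartilage markers tested, 4 were lower in replicate 3 and 1 was called, Col2a1 (-2.66). Their median log2 difference was -1.14. Of the 10 tested neural crest, Schwann cell and neuronal markers, 4 were lower in replicate 3, and the median was 0.53. In that list 4 were called, of which Elavl4 (-1.07) was lower, and Tubb3 (1.11), Fabp7 (1.36) and S100b were higher. Sox9, Sox10 and the collagens were low in replicate 3 of each group. The part of muscle, stroma, cartilage and neural crest cells in these values was not tested. When both replicate 3 libraries were left out, Sox2, Sox9, Ehf and Kit were higher with AMD3100, as in all libraries, at 0.65, 0.24, 0.36 and 0.64 on the log2 scale. Kitl, Trp63, Grhl2 and Sox10 were lower, also as in all libraries, at -0.46, -0.54, -0.32 and -0.02. Elf5 alone reversed, to -0.02.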

How the data were processed

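The 6 libraries were prepared with a QuantSeq 3′ kit, and GEO's labels gave the group and the replicate number of each. Raw read counts per gene symbol were deposited by the authors for every library. Their processing notes name Bowtie2, edgeR and mm10, and the read counter and annotation are not given in the sources used here. Of 23282 lines, 22 that repeated a symbol with identical counts were left out.

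Counts were analysed with edgeR 4.0.16 in R 4.3.3 (TMM, filterByExpr, glmQLFit, glmQLFTest, condition as the only term, Benjamini-Hochberg adjustment over 13610 genes), and CPM values are TMM-normalized. The study's per-gene test after quantile normalization was run as an alternative, besides DESeq2 1.42.0, limma 3.58.1 voom and others given at the end. Standard errors and 95% intervals come from the coefficient and its F. In simulated data with the spread of these libraries, edgeR called 69 of 200 genes changed 4-fold, with 1 false call among 12988 genes. The simulated counts had no shift shared by the replicate 3 libraries, and the changed genes were drawn from the more abundant ones.

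Libraries sharing a replicate number were treated as pairs by their labels. Their deviations from the group means correlated over genes at 0.185, 0.171 and 0.584 for replicates 1, 2 and 3. With only replicate 3 set apart as a batch, the log2 fold change was 0.91 for Sox2 (edgeR unadjusted p = 0.0169). For Ehf it was 0.74 (edgeR unadjusted p = 0.0239). Replicates 1 and 2 were not told apart by this check, since control 2 with AMD3100 1 gave 0.198 and control 1 with AMD3100 2 gave 0.146. The 10 genes and all lists were chosen with earlier results of these data known. Beyond the 10, the genes named are list members with an unadjusted p-value under 0.05, the 2 most abundant of each list and those closest in pattern, and other genes were named after their values were seen. Positions and upstream sequences are RefSeq's (GRCm38.p6, the build of mm10). All 10 symbols matched, and 5 had an upstream sequence. Of 11 reads of 50 bases simulated from the 3′ end of each of the 10 genes (GENCODE vM1, NCBIM37, minimap2 2.31-r1302), 0 matched another place comparably well.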

Additional observations from a re-analysis of the deposited data

How the results depend on the processing

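No gene of the 9 tested had an adjusted p-value under 0.05 in any fit that gives one, with the lowest, 0.523, for Sox2 under the replicate block. Over all genes, the count at an adjusted p-value under 0.05 was 0 in the condition-only edgeR test, where 228 genes had an unadjusted p-value under 0.05. It was 5 with DESeq2, 3 with the replicate block and 7 with replicate 3 as a batch. The count at a fold change over 1.5 and an unadjusted p-value under 0.05 was 228, and became 598 with the replicate block, 439 with the version of the study's procedure, 613 with replicates 1 and 2 only and 564 with replicate 3 as a batch. With single libraries left out it ranged from 163 without AMD3100 replicate 1 to 547 without control replicate 3. The share of higher genes among these calls was 23.7%, 33.9% with the block and 57.8% without control replicate 3. Of the 9 genes, 0 were called, against 1 (Sox2) with voom after quantile normalization, 2 with the block, 2 with replicate 3 as a batch, and 0 to 1 with single libraries left out, the 1 being Sox2 without control replicate 1. The alternatives without both replicate 3 libraries, with replicate 3 as a batch, and without Rn45s were chosen after seeing the data. The log2 fold changes of Sox2, Ehf and Kit kept their sign in all 17 alternatives. The others reversed when a library was left out, with ranges of -0.042 (without control replicate 3) to 0.48 for Sox9, -0.49 to 0.42 (without AMD3100 replicate 3) for Sox10, -0.32 to 0.11 (without control replicate 1) for Trp63, -0.62 to 0.16 (without control replicate 1) for Kitl, -0.23 (without control replicate 3) to 0.54 for Elf5 and -0.28 to 0.12 (without AMD3100 replicate 2) for Grhl2. With replicates 1 and 2 only, Elf5 was at -0.017 and Trp63 at -0.54. Relative to epithelial markers, the ranges that crossed 0 were -0.34 to 0.19 for Sox9, -1.0 to 0.35 for Sox10, -0.24 to 1.05 for Kit, -0.31 to 0.19 for Elf5 and -0.10 to 0.78 for Ehf, and Sox9 was at 0.18 with replicates 1 and 2 only. Beyond the fewer samples, the cause was not tested. The block changed no other call of the 9 genes. Depth limits Kit, with 12 or 13 counts in the replicate 3 libraries, and Ascl3.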

Other observations

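Over the 6 libraries, the genes whose log2 CPM had the highest Pearson correlation with that of Sox9 among 8245 others with a mean of at least 10 CPM were Psma6 (0.998), Alg11 (0.998) and Anapc2 (0.997). For Sox10 they were Fkbp4 (0.998), Ankrd40 (0.997) and Trip6 (0.997), and for Ehf they were Ppp6r1 (0.995), Dctn1 (0.993) and Ypel3 (0.992). A correlation over 0.9 was reached by 968 genes with Sox9, 956 with Sox10 and 438 with Ehf, and the 6 points share the split between replicate 3 and the other libraries. Among the 10 genes, Sox9 and Sox10 had a correlation of 0.960, Ehf and Elf5 of 0.925 and Sox9 and Kit of 0.904, whereas Grhl2 had -0.448 with Sox9.

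Of the 10 erythroid markers, all were tested and 0 were called, against 1.68% of all genes. In AMD3100-treated eSMGs 9 of the 10 were lower, with a median log2 fold change of -0.39. Over all genes 6510 of 13610 were lower and the median was 0.02. With replicates 1 and 2 only 3 of the 10 were called, against 613 of 13948 genes. In each of 3 other fits 1 was called. These were without control replicate 1 (195 of 14241 genes), without AMD3100 replicate 3 (451 of 14260) and with replicate 3 as a batch (564 of 13610). Hba-a1, an alpha globin gene, was the most abundant at 7021 ± 4321 CPM in control and 5528 ± 1202 CPM in AMD3100-treated eSMGs, followed by the beta globin gene Hbb-b1 at 2235 ± 888 and 1645 ± 438 CPM. By library Hba-a1 was at 4229, 11999 and 4836 CPM in control and 4301, 6704 and 5579 CPM in AMD3100-treated eSMGs. Control replicate 2 alone stood above all AMD3100 libraries. Pmel, of pigment cells, was at 7.34 ± 3.99 and 11.2 ± 6.08 CPM, and Col2a1, of cartilage, at 24.9 ± 16.6 and 18.8 ± 13.0 CPM.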
